A study of Mus musculus with 6 samples.

Results

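Macrophages and the monocytes that give rise to them are described here through 38 genes, which cover the growth factor and transcription factors of the lineage, its surface receptors and its enzymes. A gene was taken as a member when its symbol stood in the name field of a row in the deposited gene table, and 37 of the 38 were found among 28539 loci. The remaining one, Chi3l3, matched no row, and the table holds its current RefSeq symbol, Chil3, whose values are given with its group below. RNA was sequenced from whole corneas of female C57BL/6J mice aged 6 to 8 weeks in 3 groups of 2 samples: corneas that were not treated (day 0), and those collected on day 5 and on day 15 following an alkali burn of the ocular surface. All groups share the strain, sex and age, and it is not stated if a group's samples were separate animals or pooled corneas. A whole cornea holds epithelium, stroma, endothelium and any blood cells that have entered it, so these values are levels in tissue.

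Tissue macrophages depend on the growth factor Csf1 and its receptor, and on the transcription factor PU.1, which the gene Spi1 encodes. Blood monocytes enter injured tissue along chemokine gradients and become macrophages there. Activated by microbial or damage signals, macrophages make inflammatory mediators. In healing tissue they more often express receptors for uptake of debris and enzymes such as arginase. The normal cornea contains a sparse population of resident macrophages, and corneal burns are known to draw many more in.

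Levels are in FPKM, which divides fragments by transcript length and library size. The authors give 1 pooled value per group, and levels of different genes can be compared per length. The range after a value is the authors' interval for that group. Spread between samples could not be computed, and no p-value is given. A gene is called apart between 2 groups when the authors' status field read OK in both and the larger FPKM reached 1. The log2 ratio of (FPKM + 1) also had to be 1 or more in size, with no value in both intervals. An FPKM below 1 was found for 8 of 37 members at day 0, for 3 at day 5 and for 3 at day 15. At day 0 the interval of 17 members reached 0, so folds against low day 0 values are imprecise. In bulk tissue, more cells of a type and more RNA per cell cannot be told apart.

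In the burned cornea 19 of the 37 members were higher and apart on at least 1 of the later days and 18 on neither, and 0 members were lower and apart from the uninjured cornea, where 2.5% of loci were at day 5 and 1.81% at day 15. At day 5, 13 of 37 members were higher and apart from day 0. That was 38.2% of the 34 that reached an FPKM of 1 on either day, beside 3.42% of the 15576 such loci with status OK. At day 15 the count was 18 of 37, or 52.9% of the 34 that reached it, where 2.91% of 15186 loci were. These shares of loci also stand beside the counts of smaller groups below. Both comparisons use the same day 0 samples. With no fold or interval asked, 31 of the 34 members that reached an FPKM of 1 had a higher value at day 5 and 31 of 34 at day 15. The shares of such loci were 44.9% and 43.1%. Across the 35 members with FPKM of at least 1 in some group, the median log2 ratio was 1.36 at day 5 and 1.70 at day 15, beside -0.08 in each case over all loci with the same filter. The macrophage markers are themselves members, so their levels cannot test the lineage label. Emr1, which encodes the F4/80 antigen, together with Mpeg1, Lyz2, Ms4a7 and Aif1, had an FPKM above 1 in each group. So did the marker Csf1r, which was not apart in any comparison, while the value of Cd68 is that of a merged locus. In the plot of FPKM by group, the day 0 points lie to the left of both others for most members.

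**Figure D1:**
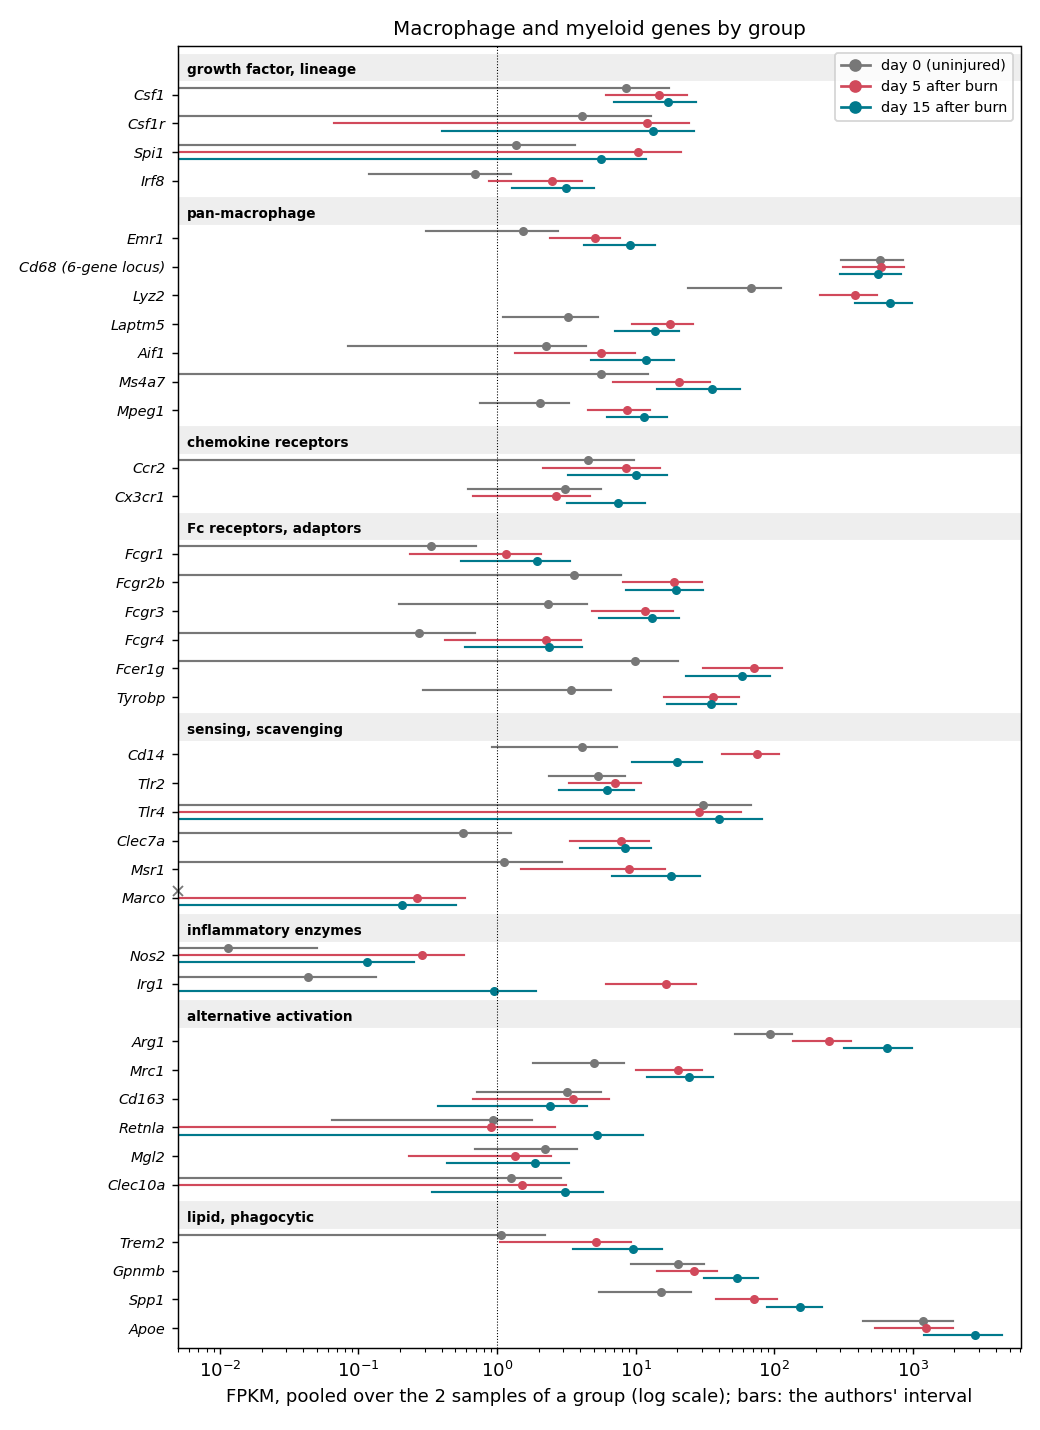
FPKM (log scale) of the 37 members at day 0, day 5 and day 15, ordered by role. Points are the authors' pooled group values and bars their intervals. Bars with a lower bound of 0 run to the left edge, and a cross marks Marco, listed at 0 at day 0. Irg1 has its highest value at day 5 (16.7), Lyz2 and Arg1 at day 15 (685 and 654).

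Among the growth factor and lineage genes, 1 of 4 was apart at day 15 and none at day 5, although each had a higher value than at day 0 at both times. Csf1, the secreted growth factor, had an FPKM of 8.47 (0 to 17.4) at day 0, 14.8 (6.13 to 23.5) at day 5 and 17.1 (6.99 to 27.2) at day 15. The receptor gene Csf1r stood at 4.11 (0 to 13.0), 12.1 (0.0663 to 24.2) and 13.5 (0.401 to 26.5), with intervals that overlapped at every time. The Csf1r locus is 2.80 times as long as the annotated gene and its exons overlap those of Hmgxb3 on the other strand, so its value is uncertain. Spi1 was at 1.36 (0 to 3.63), 10.48 (0 to 21.4) and 5.60 (0 to 11.9). That gene had one of the larger ratios at day 5 (7.71-fold), but the intervals of all its groups reached 0. Irf8, a transcription factor of monocyte and dendritic cell development, was at 0.688 (0.119 to 1.26), 2.49 (0.873 to 4.11) and 3.16 (1.28 to 5.04), and was higher and apart at day 15, with an interval that cleared that of day 0 by a narrow margin. When the groups were scaled to equal levels of 13 reference (housekeeping) genes, by their median ratio, Irf8 was not apart, nor was Aif1, a general macrophage gene described below, at day 15.

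PU.1 binds sites with a purine-rich core, and the promoters of the members were searched for letters of that core. RefSeq promoters (GRCm38.p6, 250 bases before to 50 after a start) were matched for 28 of the 38 listed genes. Those without an entry were Emr1, Csf1r, Cd14, Msr1, Arg1, Nos2, Clec10a, Tyrobp, Spi1 and Tlr4. The letters GAGGAA, on either strand, stood in at least 1 promoter of 16 of these 28 genes, beside 31.3% of 27025 genes with promoters. The longer GAGGAAGT, which contains GAGGAA, stood in those of 3 of the 28 (Retnla, Spp1 and Fcgr4), beside 3.69% of all. AGAGGAAG and AGGAAGT, which overlap these, were in 6 and 9 of the 28, beside 5.22% and 10.7%. The match nearest to the start is shown for members that were higher and apart at day 5 or day 15, on the gene's strand, with the match in capitals (TTCCTC is the same core on the other strand); Ms4a7, with a match after the start, is left out.
Fcgr3 at chr1:171059392-171059421, minus strand: gagtccatttccTTCCTCtttttgtagttc
Laptm5 at chr4:130913266-130913295, plus strand: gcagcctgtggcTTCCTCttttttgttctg
Mrc1 at chr2:14229367-14229396, plus strand: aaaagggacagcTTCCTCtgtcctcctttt
Trem2 at chr17:48346349-48346378, plus strand: agcctcctttccTTCCTCcctccctcacgc
Aif1 at chr17:35176042-35176071, minus strand: ataggcacccagTTCCTCcatcctattgtt
Clec7a at chr6:129472858-129472887, minus strand: aaacaggatctaGAGGAAaaaagggaaatt
Spp1 at chr5:104434986-104435015, plus strand: acaaaaccagagGAGGAAgtgtaggagcag
Irg1 at chr14:103046792-103046821, plus strand: tcttatgtctgtGAGGAAtcatcagattat

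These matches describe letters in a window of fixed length. The first base of the match lay 38 bases before the annotated start in Laptm5, 40 in Trem2 and 35 in Mrc1. Binding of PU.1 was not measured in these samples.

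General macrophage genes were higher and apart for 3 of 7 members at day 5 and for 6 of 7 at day 15. Lyz2, the lysozyme of macrophages and neutrophils (mm10 chromosome 10, 117277541 to 117282272), stood at 68.3 (23.9 to 113) at day 0, 385 (216 to 553) at day 5 and 685 (381 to 988) at day 15. The FPKM was 5.63-fold that of day 0 at day 5 and 10.02-fold at day 15, with intervals that lay above that of day 0. Its neighbour and paralog Lyz1 stood far lower, at 1.98, 7.14 and 9.75, and how reads shared by the pair were split is unknown. Laptm5, a lysosomal protein of blood cells, was at 3.23 (1.11 to 5.34), 17.6 (9.35 to 25.8) and 13.8 (7.06 to 20.5). Mpeg1, the pore-forming perforin-2 of macrophages, was at 2.03 (0.750 to 3.31), 8.64 (4.51 to 12.8) and 11.5 (6.20 to 16.7). These 3 genes were apart from day 0 at both times. Mpeg1 was 4.26-fold higher at day 5 and 5.65-fold at day 15, and Laptm5 5.44-fold and 4.27-fold.

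Emr1, Ms4a7 and Aif1 were apart from day 0 at day 15 and not at day 5. Emr1 stood at 1.53 (0.309 to 2.75), 5.08 (2.41 to 7.74) and 9.07 (4.21 to 13.9) at days 0, 5 and 15. Ms4a7, a membrane protein of macrophages, was at 5.67 (0 to 12.2), 20.6 (6.88 to 34.4) and 35.4 (14.4 to 56.4). The calcium-binding protein gene Aif1, also known as Iba1, was at 2.25 (0.0842 to 4.41), 5.60 (1.34 to 9.87) and 11.9 (4.73 to 19.0). Each of the 3 had its highest value at day 15, 5.28-fold to 6.24-fold above day 0, and in each the intervals of day 15 and day 5 overlapped. Cd68, a lysosomal glycoprotein and standard histological marker, shares its row with Eif4a1, Senp3, Tnfsf12, Tnfsf13 and Tnfsfm13. That merged locus was at 579, 587 and 559, a value that cannot be assigned to Cd68.

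Receptors for monocyte recruitment were not apart from day 0 at either time. Ccr2, the receptor that brings monocytes out of the blood, had an FPKM of 4.53 (0 to 9.78) at day 0, 8.57 (2.15 to 15.0) at day 5 and 10.1 (3.27 to 16.9) at day 15. Cx3cr1, the fractalkine receptor of resident and patrolling cells, was at 3.12 (0.614 to 5.62), 2.67 (0.675 to 4.66) and 7.46 (3.21 to 11.7). Its exons overlap those of Gm33858 on the other strand. The value was lowest at day 5, and the intervals of all its groups overlapped. Of the chemokines that bind Ccr2, Ccl2 and Ccl7 were higher and apart at day 5, by 29.8-fold and 47.0-fold. Ccl2 stood at 41.9 (14.4 to 69.4) at day 5, against 1.41 (0 to 3.73) at day 0. At day 15 it was at 11.97 (1.15 to 22.8), not apart. Ccl12, another such ligand, was at 8.58 (0 to 19.0), 49.0 (15.35 to 82.6) and 51.8 (16.7 to 86.8) at days 0, 5 and 15, and was not apart at either time. Cx3cl1, the ligand of Cx3cr1, had 11.96, 11.7 and 11.6 at days 0, 5 and 15.

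**Figure D2:**
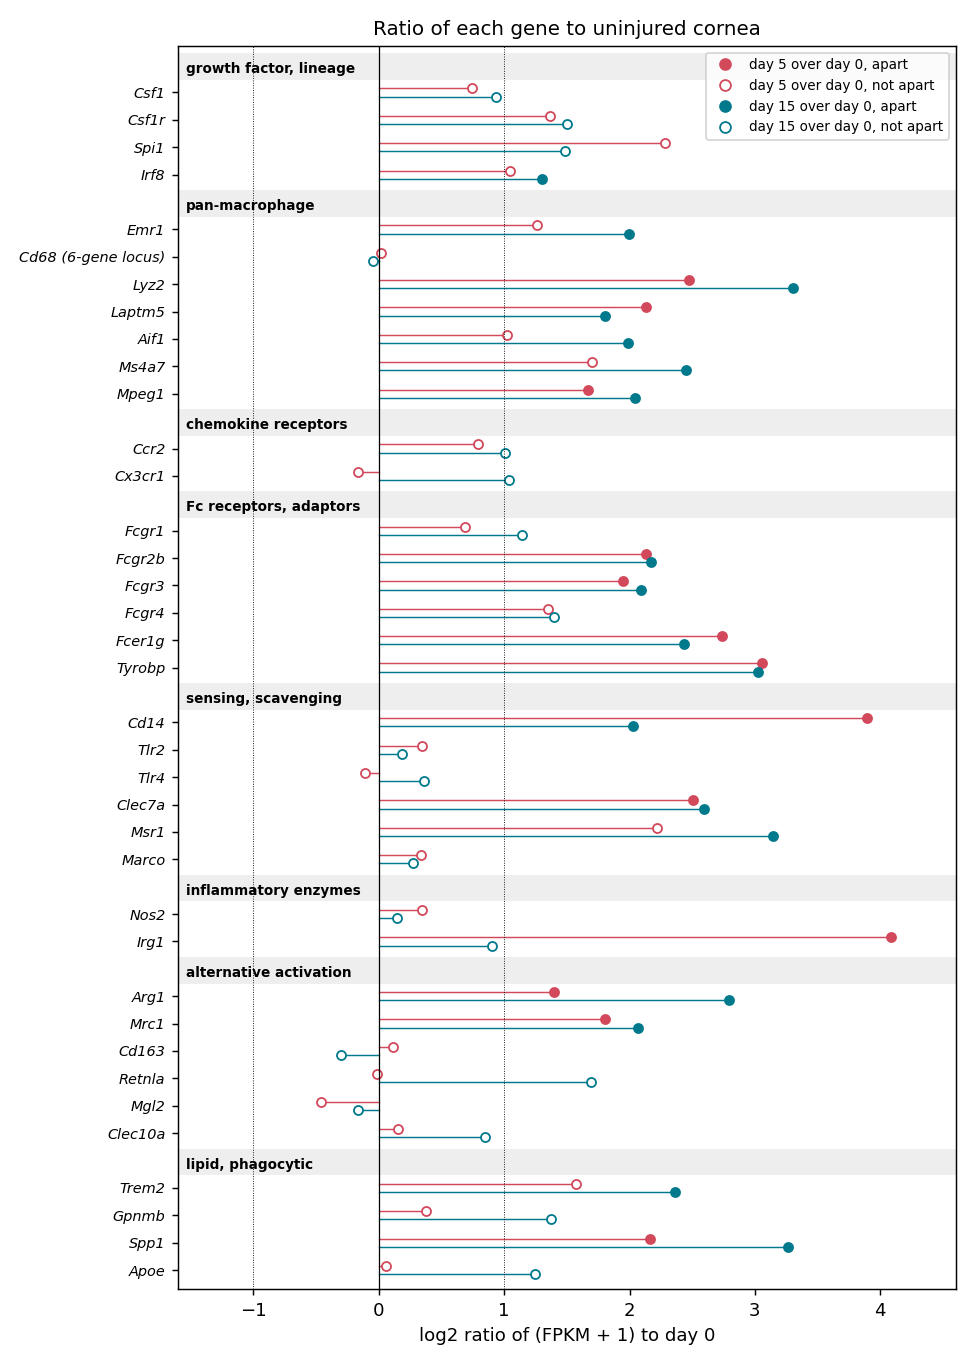
Log2 ratio of (FPKM + 1) to day 0 for each member at day 5 and at day 15, by role. Filled points are apart from day 0 and open points are not. Irg1 (4.08) and Cd14 (3.89) have the largest ratios at day 5, and Lyz2 (3.31) and Spp1 (3.26) at day 15.

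The Fc receptors, which bind antibody-coated particles, and their signalling adaptors were higher and apart for 4 of 6 members at both times. Tyrobp, the adaptor also called DAP12, carries signals for receptors such as Trem2. It had an FPKM of 3.44 (0.291 to 6.60) at day 0, 36.0 (16.2 to 55.8) at day 5 and 35.2 (17.0 to 53.4) at day 15. Fcer1g, the common gamma chain of activating Fc receptors (chromosome 1, 171229572 to 171234349), was at 9.97 (0 to 20.1), 72.1 (30.8 to 113) and 58.3 (23.1 to 93.6). Both adaptors stood 5.85-fold to 10.4-fold above day 0, with values at day 5 and day 15 that differed by less than the width of the intervals. A second row named Tyrobp has the same coordinates and was at 0.147, 4.91 and 1.11, and the Tyrobp locus is 4.99 times as long as the gene.

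The low-affinity receptors Fcgr2b, which inhibits, and Fcgr3, which activates, were both apart at both times. Fcgr2b was at 3.57 (0 to 7.81), 19.0 (8.07 to 29.9) and 19.6 (8.48 to 30.6). Fcgr3 was at 2.31 (0.196 to 4.43), 11.8 (4.82 to 18.7) and 13.1 (5.46 to 20.7). Scaled to the reference genes, neither was apart at day 5, and Fcgr2b was not apart at day 15. The day 5 interval of Fcgr2b began only just above the end of its day 0 interval, and Gm38204 overlaps it on the other strand. Fcgr1, the high-affinity receptor, was at 0.336 (0 to 0.708), 1.15 (0.235 to 2.07) and 1.95 (0.548 to 3.35), and Fcgr4 at 0.276 (0 to 0.695), 2.24 (0.420 to 4.06) and 2.35 (0.585 to 4.12). Neither was apart from day 0, and both stood below the other Fc receptor genes on the FPKM scale in each group.

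Neutrophils also express several of these genes, among them Fcer1g, Tyrobp, Fcgr3, Fcgr4, Lyz2, Cd14, Clec7a and Irg1, and some neutrophil markers were higher in the same groups. Of 15 neutrophil markers, 14 were found, of which 7 were higher and apart at day 5 and 5 at day 15. At day 5 that was 77.8% of the 9 that reached an FPKM of 1 on either day, beside 3.42% of all tested loci. At day 15 it was 71.4% of 7, beside 2.91%. The summed FPKM of the 14 found was 38.9 at day 0, 1668 at day 5 and 869 at day 15. Ltf (15.7, 1243 and 760) made up most of the sum at days 5 and 15 but not at day 0. Ltf is named on 3 rows and Csf3r, given below, on 2, and for each the row with the highest mean is given. S100a8 was at 1.502, 140 and 34.1, S100a9 at 19.5, 242 and 63.1, and Mmp9 at 0.176, 8.30 and 3.59. At day 15 S100a9 was lower and apart from day 5. The receptor genes Cxcr2 (0.451, 9.54 and 2.99) and Csf3r (0.363, 7.72 and 2.69) were higher and apart at both times. Mmp8 was at 0.0283, 1.11 and 0.504, higher and apart at day 5. Stfa2l1 (1.01, 11.8 and 2.03) and Retnlg (0, 2.81 and 0.227) were not apart. Camp, Ngp and Mpo were below 1 in each group: Camp was at 0.158, 0.818 and 0, Ngp at 0.0606, 0.222 and 0.0461, and Mpo at 0, 0.0194 and 0. Elane was listed at 0 in all 3 groups and Prtn3 at 0, 0.181 (0 to 8.29) and 0, on a shared locus 353 and 192 times as long as these genes, so that both are uncertain. Which cells the Ltf, S100a8, S100a9 and Mmp9 values came from was not tested. The part of neutrophils in the member values was not tested. Leaving out 11 members listed, after the data were seen, as also expressed by neutrophils, 5 of 26 were higher and apart at day 5 and 11 of 26 at day 15. The fall in these counts depends on which members were taken out and is no separate result.

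Receptors for microbial and damage signals and for debris were higher and apart for 2 of 6 members at day 5 and 3 of 6 at day 15. Cd14, the co-receptor for lipopolysaccharide, had an FPKM of 4.12 (0.916 to 7.32) at day 0, 75.1 (41.7 to 108) at day 5 and 19.9 (9.40 to 30.3) at day 15. It was 18.2-fold higher at day 5 and 4.82-fold higher at day 15 than at day 0, and the intervals of all 3 groups were separate. Clec7a, which encodes the fungal glucan receptor dectin-1, was at 0.570 (0 to 1.26), 7.90 (3.36 to 12.4) and 8.45 (3.98 to 12.9), apart from day 0 at both times (13.8-fold and 14.8-fold). Msr1, a scavenger receptor for modified lipoproteins, was at 1.13 (0 to 2.94), 8.93 (1.499 to 16.4) and 17.9 (6.77 to 29.0), and was 15.8-fold higher and apart at day 15. The Msr1 locus is 7.64 times as long as the gene.

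The Toll-like receptors that work with Cd14 were not apart at either time. Tlr2, for bacterial lipoproteins, was at 5.36 (2.37 to 8.34), 7.09 (3.31 to 10.9) and 6.24 (2.79 to 9.68). Tlr4, the lipopolysaccharide receptor, was at 30.9 (0 to 67.5), 28.5 (0 to 57.9) and 40.0 (0 to 81.8). In both genes the intervals of the groups overlapped widely. Marco, a scavenger receptor of some resident macrophages, was listed at 0 at day 0 and had 0.265 and 0.205 at days 5 and 15, below the minimum of 1.

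Of the 2 enzymes of inflammatory activation, 1 was higher and apart at day 5 and 0 at day 15. Irg1, now called Acod1, makes the antimicrobial metabolite itaconate (chromosome 14, 103046574 to 103058142). Its FPKM was 0.0435 (0 to 0.134) at day 0, 16.7 (6.16 to 27.2) at day 5 and 0.954 (0 to 1.91) at day 15. It was higher and apart at day 5, and its day 15 value, like that of day 0, was below an FPKM of 1. Nos2, the inducible nitric oxide synthase, was at 0.0114 (0 to 0.0502), 0.287 (0 to 0.577) and 0.116 (0 to 0.254), below 1 in every group.

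Genes of alternative activation were mixed, with 2 of the 6 found higher and apart at both times. Arg1, the arginase that turns arginine into ornithine (chromosome 10, 24915207 to 24959947), had an FPKM of 93.6 (52.6 to 135) at day 0, 248 (138 to 358) at day 5 and 654 (320 to 988) at day 15. The cells that express it in the cornea cannot be told from whole tissue. The locus is 3.65 times as long as the gene. Mrc1, the mannose receptor, was at 5.03 (1.82 to 8.24), 20.1 (10.03 to 30.2) and 24.3 (12.2 to 36.4). Arg1 was 2.65-fold higher at day 5 and 6.98-fold at day 15, and Mrc1 4.83-fold at day 15, both apart at both times. Scaled to the reference genes, neither was apart at day 5.

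The other genes of that group were not apart at either time. Cd163, the haemoglobin scavenger receptor, was at 3.20 (0.719 to 5.67), 3.53 (0.674 to 6.39) and 2.41 (0.377 to 4.45). The galactose-type lectins Mgl2 and Clec10a are neighbours and paralogs on chromosome 11. Mgl2 was at 2.23 (0.689 to 3.77), 1.35 (0.232 to 2.47) and 1.87 (0.433 to 3.32), and Clec10a at 1.27 (0 to 2.92), 1.52 (0 to 3.12) and 3.07 (0.337 to 5.81). Mgl2 was highest at day 0, unlike the other 36 members. Retnla, a secreted protein induced by interleukin-4, was at 0.930 (0.0644 to 1.79), 0.910 (0 to 2.61) and 5.25 (0 to 11.3), a higher value at day 15 whose interval reached 0. Chil3, the chitinase-like Ym1 listed as Chi3l3, was at 0.0150, 0.481 and 0.180, and its paralog Chil4 at 0, 0.104 and 0.0282, all below 1. Of the cytokines that induce this state, Il13 was listed at 0 in each group and Il4 at 0, 0 and 0.154, while Ifng, which induces the inflammatory state, stood at 0, 0.0872 and 0.119.

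Arginine and polyamine genes were mostly not apart. Of 7 such genes, none was apart at day 5 and Odc1, the ornithine decarboxylase, was lower and apart at day 15. Odc1 was at 157 (86.0 to 229), 70.1 (39.0 to 101) and 53.8 (30.3 to 77.3). Slc7a2, an arginine transporter, stood at 1.49, 5.22 and 3.62, Arg2, the mitochondrial arginase, at 0.589, 5.00 and 1.17, and Slc7a1 at 29.3, 18.7 and 15.42, none of them apart.

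Genes of lipid handling and phagocytosis had their highest values at day 15 in all 4 cases. Spp1, the secreted phosphoprotein osteopontin (chromosome 5, 104435111 to 104441053), had an FPKM of 15.2 (5.41 to 25.0) at day 0, 71.4 (38.3 to 105) at day 5 and 155 (88.4 to 221) at day 15. It was 4.70-fold higher at day 5 and 10.2-fold at day 15, apart at both times, and Gm42793 overlaps it on the same strand. Trem2, a lipid-sensing receptor that signals through Tyrobp, was at 1.06 (0 to 2.201), 5.15 (1.04 to 9.25) and 9.59 (3.56 to 15.6), and was 9.03-fold higher and apart at day 15. Apoe, the lipid carrier apolipoprotein E, which many cell types secrete, was at 1188 (438 to 1939), 1239 (535 to 1943) and 2813 (1210 to 4416). Of the members with a row of their own, Apoe had the highest FPKM in each group, and its intervals overlapped.

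Gpnmb, a glycoprotein of phagocytes and pigment cells, was at 20.2 (9.21 to 31.3), 26.5 (14.2 to 38.8) and 54.0 (31.2 to 76.8). Its day 15 and day 0 intervals met at 31.2 and 31.3, so that it was not apart, and it was apart when the groups were scaled to the same median ratio. Pigment cell markers had a different order: Tyrp1 was at 44.9, 9.49 and 27.6, Dct at 132, 34.9 and 114, and Mlana at 159, 30.8 and 89.5. Of 7 such markers none was higher and apart from day 0 at either time, and Tyrp1 was lower and apart at day 5. At day 15 against day 5, 6 of the 7 had a higher value, and Tyrp1 (2.91-fold) and Dct (3.26-fold) were higher and apart, while Gpnmb was 2.04-fold higher and not apart. Their part in the Gpnmb value was not tested.

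Inflammatory and repair-type genes were set side by side, with 9 members taken as inflammatory (Cd14, Tlr2, Tlr4, Clec7a, Nos2, Irg1, Ccr2, Fcgr1 and Fcgr4) and 10 of 11 found as repair-type (the alternative activation and lipid groups). At day 5, 3 of 9 inflammatory and 3 of 10 repair-type members were higher and apart from day 0. That was 37.5% of 8 and 33.3% of 9 that reached an FPKM of 1 on either day, beside 3.42% of all tested loci. At day 15 the counts were 2 of 9 and 4 of 10, or 28.6% of 7 and 40.0% of 10, beside 2.91%. The median log2 ratio of the inflammatory members was 1.07 at day 5 and 1.07 at day 15. For the repair-type members it was 0.26 at day 5 and 1.53 at day 15. The repair-type median at day 5 was -0.02 when scaled to the reference genes and 1.3958 over the 7 members with an FPKM of at least 5. With the pseudocount at 0.1 the inflammatory medians became 2.08 and 2.24, and at 5 they became 0.48 and 0.43, and 5 of these 9 members had an FPKM below 1 at day 0. Of the 8 inflammatory members that reached an FPKM of 1, 5 were highest at day 15 (Tlr4, Clec7a, Ccr2, Fcgr1 and Fcgr4) and 3 at day 5 (Cd14, Irg1 and Tlr2). Only Cd14 and Irg1 of these were apart between the later times. Among repair-type members, 8 of 10 were highest at day 15, the exceptions being Cd163 and Mgl2, where 22.3% of 15901 loci were. Restricted to Mrc1, Cd163, Mgl2, Clec10a and Trem2, the repair-type members less often expressed outside macrophages, the median at day 15 was 0.85 and 2 of 5 were apart. The inflammatory members that were apart, Cd14, Clec7a and Irg1, are among those that neutrophils also express. Leaving out the members listed as such, a list made after the data were seen, left 4 (Tlr4, Nos2, Ccr2 and Fcgr1). Of these 0 were apart at either time, which follows from the removal of Cd14, Clec7a and Irg1 and is no separate result.

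**Figure D3:**
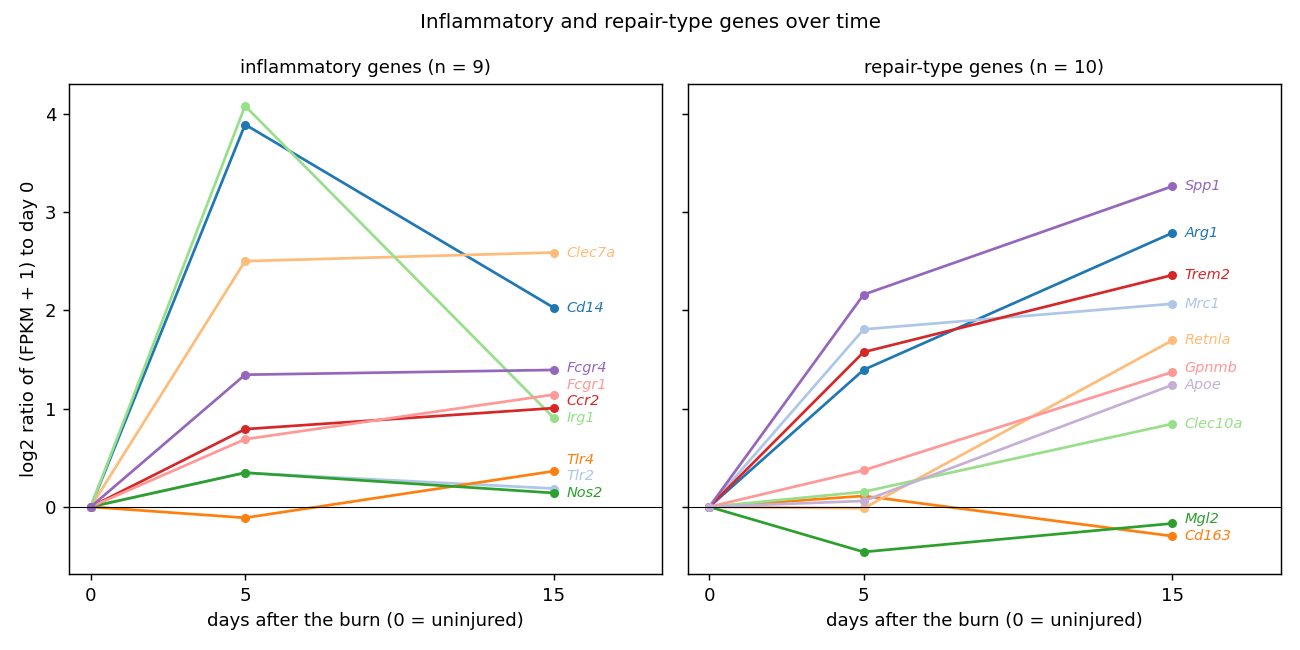
Log2 ratio of (FPKM + 1) to day 0 at day 0, day 5 and day 15 after the burn, for 9 inflammatory members (left) and 10 repair-type members (right). Each line joins the pooled group values of a gene. Irg1 and Cd14 peak at day 5, and Spp1 (3.26) and Arg1 (2.79) are highest at day 15.

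Between the later times, no member was higher and apart at day 15 against day 5, where 0.395% of 14683 loci were, and 2 members, Cd14 and Irg1, were lower and apart, where 0.388% were. Cd14 was 3.78-fold lower at day 15 and Irg1 17.5-fold. Without the interval rule, 6 members had a log2 ratio of at least 1 and were higher at day 15: Arg1 (1.39), Retnla (1.71), Gpnmb (1.0005), Spp1 (1.10), Apoe (1.18) and Cx3cr1 (1.21). The share of all loci under that rule was 2.62%. Of the 6, 5 were repair-type, and all 5 are among the members often expressed outside macrophages. None of the other 5 repair-type members (Mrc1, Cd163, Mgl2, Clec10a and Trem2) reached a log2 ratio of 1, and their median was 0.29. Arg1 was apart when the groups were scaled to the reference genes, at 1.60. With no fold or interval asked, 26 of the 35 members that reached an FPKM of 1 had a higher value at day 15 than at day 5. The other 9 had a lower one, beside 48.8% of all tested loci with a higher value. In order of level, 22 members stood lowest at day 0 and highest at day 15, and 9 lowest at day 0 and highest at day 5. Of the 35 members that reached an FPKM of 1, 1 was highest at day 0, 9 at day 5 and 25 at day 15. Of 15901 loci, 46.3% were highest at day 0, 31.4% at day 5 and 22.3% at day 15.

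Of 50 other myeloid genes, not among the members, 16 were higher and apart at day 5 and 18 at day 15, with 0 lower and apart. The remaining 34 and 32 were not apart or were below an FPKM of 1. Rnase4, higher and apart at both times, shares its row with Ang, so that value cannot be assigned to Rnase4. Cebpb, not apart, shares its row with A530013C23Rik. Of the 47 that reached an FPKM of 1, 34.0% and 38.3% were higher and apart, beside 3.42% and 2.91% of all tested loci. Their median log2 ratio was 1.74 at day 5 and 1.72 at day 15. Clec4d, a lectin of monocytes and neutrophils, had an FPKM of 0.313 (0 to 0.872) at day 0, 17.8 (6.40 to 29.1) at day 5 and 4.50 (1.18 to 7.81) at day 15. Lilrb4, an inhibitory receptor, was at 3.18 (0 to 7.30), 48.1 (20.2 to 75.9) and 32.3 (14.5 to 50.2). Plek, a protein kinase C substrate of blood cells, was at 2.55 (0.135 to 4.97), 34.9 (16.8 to 53.0) and 15.8 (7.36 to 24.2). Clec4n, which encodes dectin-2, was at 1.60 (0 to 3.50), 16.8 (6.99 to 26.6) and 25.0 (11.8 to 38.2). All 4 were apart from day 0 at both times. At day 15 against day 5 the median of these other myeloid genes was -0.04, and 19 of 50 had a higher value and 28 a lower one among those that reached an FPKM of 1, while the members' median was 0.26.

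Of 6 general leukocyte genes, 2 were higher and apart at each time, and Ptprc, the pan-leukocyte antigen CD45, was at 3.62 (0 to 7.31), 19.1 (0 to 54.0) and 15.99 (0 to 42.6), not apart. Most markers of other blood cells were too low to be called. At day 5 only 3 of 10 T and NK cell markers, 2 of 9 dendritic cell markers, 4 of 7 mast cell markers and 0 of 6 B cell markers reached an FPKM of 1 on either day, and 0 of these were apart from day 0. One of the dendritic cell markers, Xcr1, shares its locus with Fyco1. The 3 T and NK cell genes that reached it had a median log2 ratio of 1.05. Cd4 was at 0.611, 2.34 and 3.13, and Cd3e at 0.0825, 0.406 and 0.353. Among B cell genes, no marker reached an FPKM of 1, and the summed FPKM was 0.578, 0.587 and 0.794. The mast cell protease genes Cma1 and Cpa3 were at 4.76, 7.36 and 5.34, and at 4.57, 6.68 and 4.90. Cpa3 is named on 2 rows, and the one with the highest mean is given. None of 13 reference genes was apart in any comparison, and their median log2 ratio to day 0 was 0.18 at day 5 and 0.29 at day 15. The median between the later times was -0.26. At day 5, 9 of the 13 had a higher value than at day 0 and 4 a lower one. Gusb was 2.88-fold, Tfrc 2.74-fold and Gapdh 2.17-fold higher, so results scaled to these genes depend on which were chosen.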

How the data were processed

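Whole-cornea RNA was sequenced after poly(A) cDNA synthesis, per the labels. The authors deposited FPKM values, 1 per group with the bounds of its interval, in a gene table with 0 columns for single samples, so read depth and replicate spread are unknown. TopHat2 2.1.0, Bowtie2 2.2.6, Cufflinks 2.2.1, Cuffdiff and mm10 are named in the submitters' processing notes. Strandedness is not given in the sources used here.

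Log2 ratios use a pseudocount of 1, which understates differences of low genes, and the call rule was run over all loci after tests on simulated data. Members were matched by symbol. A symbol on several rows took the row with the highest mean, and 496 loci name more than 1 gene. All 38 members are named, and of each other list up to 4 genes with the largest ratios to day 0, with further ones added after their values were seen. Members and lists were chosen with earlier results of these data known. Coordinates are 1-based on mm10, and locus lengths were set beside RefSeq genes (GRCm38.p6). Alternatives changed the pseudocount, FPKM minimum, fold, interval rule, scaling and list membership. Python 3.11.15, numpy 2.4.6, pandas 2.3.3 and matplotlib 3.10.9 were used.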

Additional observations from a re-analysis of the deposited data

How the results depend on the processing

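No paired analysis was possible because the table holds no columns for single samples, and leaving out a replicate could not be run for the same reason. Over 14 alternatives no called member turned direction, but this outcome was fixed in advance. Changes of pseudocount, FPKM minimum, fold, interval rule or list membership could not turn a direction. The scalings shifted ratios by less than the log2 ratio of 1 that a call needs. Of 294 counts and medians, 267 stayed within 1.5 times the reported count or within a spread taken from the authors' intervals. That spread is the typical one of a single member, not that of a median, so large shifts passed. With a pseudocount of 5 the members' day 5 median fell from 1.36 to 0.74 and still passed. The total of 267 is therefore no measure of stability. Without the interval rule, 10.8% of all loci were higher at day 5, 8.36% at day 15 and 2.62% between the later times. Members higher at day 5 against day 0 then numbered 22, inflammatory members higher at day 15 numbered 5 and repair-type ones 7, and at day 15 against day 5, 6 members were higher, 5 of them repair-type. Asking a log2 ratio of at least 2 left 1 repair-type member higher at day 5 and 1 member lower at day 15 against day 5. Scaling to the reference genes moved the median of all loci against day 0 to -0.40 (day 5) and -0.23 (day 15), and between the later times to 0.15. Over all loci, higher and lower calls at day 5 then numbered 394 and 649, beside 533 and 389 as reported. It left 1 repair-type member higher at day 5, and made 1 member, a repair-type one, higher at day 15 against day 5. With it, Mrc1, Arg1, Fcgr2b and Fcgr3 were not apart at day 5, nor Fcgr2b, Irf8 and Aif1 at day 15. A pseudocount of 5 ended the calls of Mpeg1 at day 5 and Irf8 at day 15. The inflammatory median was 2.08 at day 5 and 2.24 at day 15 with a pseudocount of 0.1, and 0.48 and 0.43 with a pseudocount of 5. With FPKM of at least 5 the day 5 medians were 1.65 for inflammatory and 1.40 for repair-type members, over fewer genes. The repair-type median at day 5 turned to -0.02 when scaled to the reference genes. Without members often expressed outside macrophages, 1 repair-type member was higher at day 5, 2 at day 15, 1 inflammatory member was higher at day 15 and 1 member was lower at day 15 against day 5. The repair-type medians were then 0.85 for day 15 over day 0 and 0.29 for day 15 over day 5. Added after the data were seen, leaving out members that neutrophils also express gave 5 members higher at day 5 and 11 at day 15. The fall depends on which members were taken out. That removal left 0 inflammatory members higher at either time and 0 members lower at day 15 against day 5. Both counts of 0 follow from the removal of Cd14, Clec7a and Irg1. Where no construction shows it, the cause was not tested. Depth is unknown, and wide intervals limit every low gene.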
